A study of Mus musculus with 40 samples.

Results

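The higher dietary doses of the fungicides captan and folpet were set against their lower doses in the mouse duodenum, with the compound as a block in 1 fit. Libraries were chosen by their labelled treatment, and all 28 captan and folpet libraries of the 40 in the series entered. The higher doses were captan at 12000 ppm (7 libraries) and folpet at 16000 ppm (7 libraries), and the lower doses were captan at 6000 ppm and folpet at 6000 ppm (7 libraries each). The other 12 libraries were 7 exposed to hexavalent chromium at 180 ppm in drinking water and 5 labelled control, and the control libraries serve here to show background levels. All libraries are of male wildtype B6C3F1 mice, a laboratory hybrid, exposed for 28 days. The dose step was larger for folpet than for captan, because both start at 6000 ppm and end at 16000 and 12000 ppm. RNA was read from scraped sections of formalin-fixed, paraffin-embedded duodenum with TempO-Seq, which ligates, amplifies and sequences pairs of probes that sit next to each other on a transcript. The labels do not state that each library is a separate animal, so p-values measure the spread between libraries, which may be technical.

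Captan and folpet carry the same trichloromethylthio group and react with thiols such as those of glutathione and of cysteines in proteins. The duodenal lining, in which enterocytes absorb nutrients on the villi and stem cells divide in the crypts, is exposed to such compounds in the diet. Cells that sense damaged proteins switch on heat shock genes through HSF1, and cells that sense electrophiles switch on detoxifying and antioxidant genes through NRF2. The factor SREBP2 turns on the genes of sterol synthesis when the sterol content of the endoplasmic reticulum is low, SREBP1c turns on fatty acid synthesis, and the AH receptor turns on Cyp1a1.

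The upstream sequences of 3 genes that were higher at the higher doses are shown, chosen from 9 windows searched because each holds a short motif linked to sterol, heat shock or AH receptor control. Each is the 250 bases before the annotated start, 5′ to 3′ on the gene's strand, from RefSeq on GRCm38.p6, with the motif in capitals. Hmgcs1 makes the precursor of mevalonate in sterol synthesis (chr13:119690101-119690350, + strand), Hspa1b is an inducible HSP70 chaperone (chr17:34959239-34959488, - strand), and Cyp1a1 is a cytochrome P450 that oxidises aromatic compounds (chr9:57697363-57697612, + strand).
Hmgcs1: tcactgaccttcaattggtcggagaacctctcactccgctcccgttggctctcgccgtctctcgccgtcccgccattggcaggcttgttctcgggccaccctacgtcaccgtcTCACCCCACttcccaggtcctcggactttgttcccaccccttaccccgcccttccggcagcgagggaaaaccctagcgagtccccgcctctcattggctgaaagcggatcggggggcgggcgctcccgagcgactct
Hspa1b: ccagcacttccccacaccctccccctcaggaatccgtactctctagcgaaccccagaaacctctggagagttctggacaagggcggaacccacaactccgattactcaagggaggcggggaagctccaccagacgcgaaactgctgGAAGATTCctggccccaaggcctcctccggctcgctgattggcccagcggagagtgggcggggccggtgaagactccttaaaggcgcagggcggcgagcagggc
Cyp1a1: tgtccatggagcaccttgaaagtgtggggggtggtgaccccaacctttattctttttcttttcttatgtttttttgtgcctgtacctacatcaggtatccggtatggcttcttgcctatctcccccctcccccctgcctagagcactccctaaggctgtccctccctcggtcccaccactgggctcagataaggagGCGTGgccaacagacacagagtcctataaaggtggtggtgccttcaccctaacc
The sterol motif TCACNCCAC of Hmgcs1 begins at -137, the heat shock motif GAANNTTC of Hspa1b at -104 and the xenobiotic motif GCGTG of Cyp1a1 at -54, counted from the start. Searched on both strands, these motifs occur in 1.05%, 6.69% and 28.2% of the 32851 RefSeq windows of the same length, so a match is a description of the letters and no more. The windows of Insig1 and Fasn, whose genes were also higher, hold no TCACNCCAC, and those of Bag3 and Tcp1 hold no GAANNTTC. The antioxidant motif TGACNNNGC, present in 10.2% of all windows, is in neither the Osgin1 nor the Cbr3 window, and is in that of Tcp1. The Cbr3 window holds GAANNTTC. Most of the windows searched hold GCGTG: besides Cyp1a1 it is in those of Insig1, Fasn, Bag3, Osgin1 and Tcp1. It is not in those of Hmgcs1, Hspa1b and Cbr3.

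In the 28 libraries, total counts ran from 3168180 to 6128206 at the higher doses and from 1763440 to 6788378 at the lower doses. Of 14 enterocyte markers, Apoa1, Fabp1, Fabp2 and Hnf4a are on the panel, and they summed to 64207 to 94095 CPM (counts scaled to a common library size) at the higher doses, 48977 to 99194 CPM at the lower doses and 18986 to 63006 CPM in control. The acinar probes, named for the enzyme-making cells of the pancreas, took 19.5 ± 17.2% of counts at the higher doses, 19.4 ± 14.04% at the lower doses (SD, n = 14 each) and 50.1 ± 22.9% in control (n = 5). The difference of 0.0585 percentage points between the doses gave p = 0.992 in a 2-sided exact permutation test within compound. By compound, the share was 11.98 ± 19.6% at captan 12000 ppm against 18.8 ± 15.3% at captan 6000 ppm (exact p = 0.509) and 27.0 ± 11% at folpet 16000 ppm against 20.1 ± 13.9% at folpet 6000 ppm (exact p = 0.319; n = 7 each, both adjusted to 0.764 over the 3 tests). The median library at captan 12000 ppm held 2.34%. In 6 libraries the 12 measured acinar markers summed to only 51.5 to 97.7 CPM, namely captan 12000 ppm replicates 1, 3 and 5, captan 6000 ppm replicates 4 and 7 and folpet 6000 ppm replicate 1. They stood apart on the first principal component, which held 22.9% of the variance, while captan 12000 ppm replicate 7 stood out with 55.4% acinar counts. In bulk tissue, fewer cells of a type and less RNA per cell cannot be told apart.

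**Figure D1:**
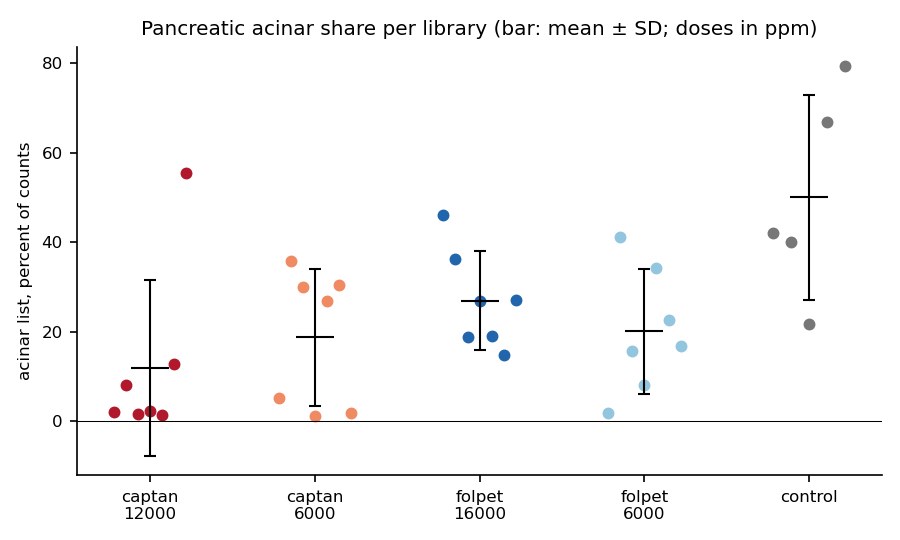
Percent of counts on the 20 pancreatic acinar probes in each library, by group, with bars for mean ± SD (n = 7, control n = 5). Captan 12000 ppm replicate 7 lies at 55.4%, far above the other libraries at that dose, and the higher and lower doses overlap for both compounds.

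Raising the dose changed a small and mixed set of genes. Among the rises were stress chaperones, enzymes of sterol synthesis and Cyp1a1. Among the falls were the growth factor receptor Erbb3 and the lymphocyte integrin Itgae. Genes of fatty acid handling went both ways, with 3 called lower and 1, Fabp1, called higher. Of 2406 tested probes, 64 were called, which is 2.66%, at a Benjamini-Hochberg adjusted p under 0.05 in the edgeR quasi-likelihood test. The 27 higher probes were 1.12% of those tested and the 37 lower probes 1.54%, and the 64 probes stand for 60 genes. The median log2 fold change of all tested probes was -0.0029. With libraries scaled by their totals alone, which shifted that median to -0.09, 4 probes were called higher and 12 lower. The count fell to 41 without captan 12000 ppm replicate 7 and was 111 without captan 12000 ppm replicate 2. Of the 38 called probes that the naming rule took from the pooled fit, 37 kept their call with the acinar share as a covariate, 26 without the library over 50% acinar and 24 without the 6 libraries of fewest acinar counts. With all 40 libraries in the fit 20 kept it, and with library totals alone 14.

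**Figure D2:**
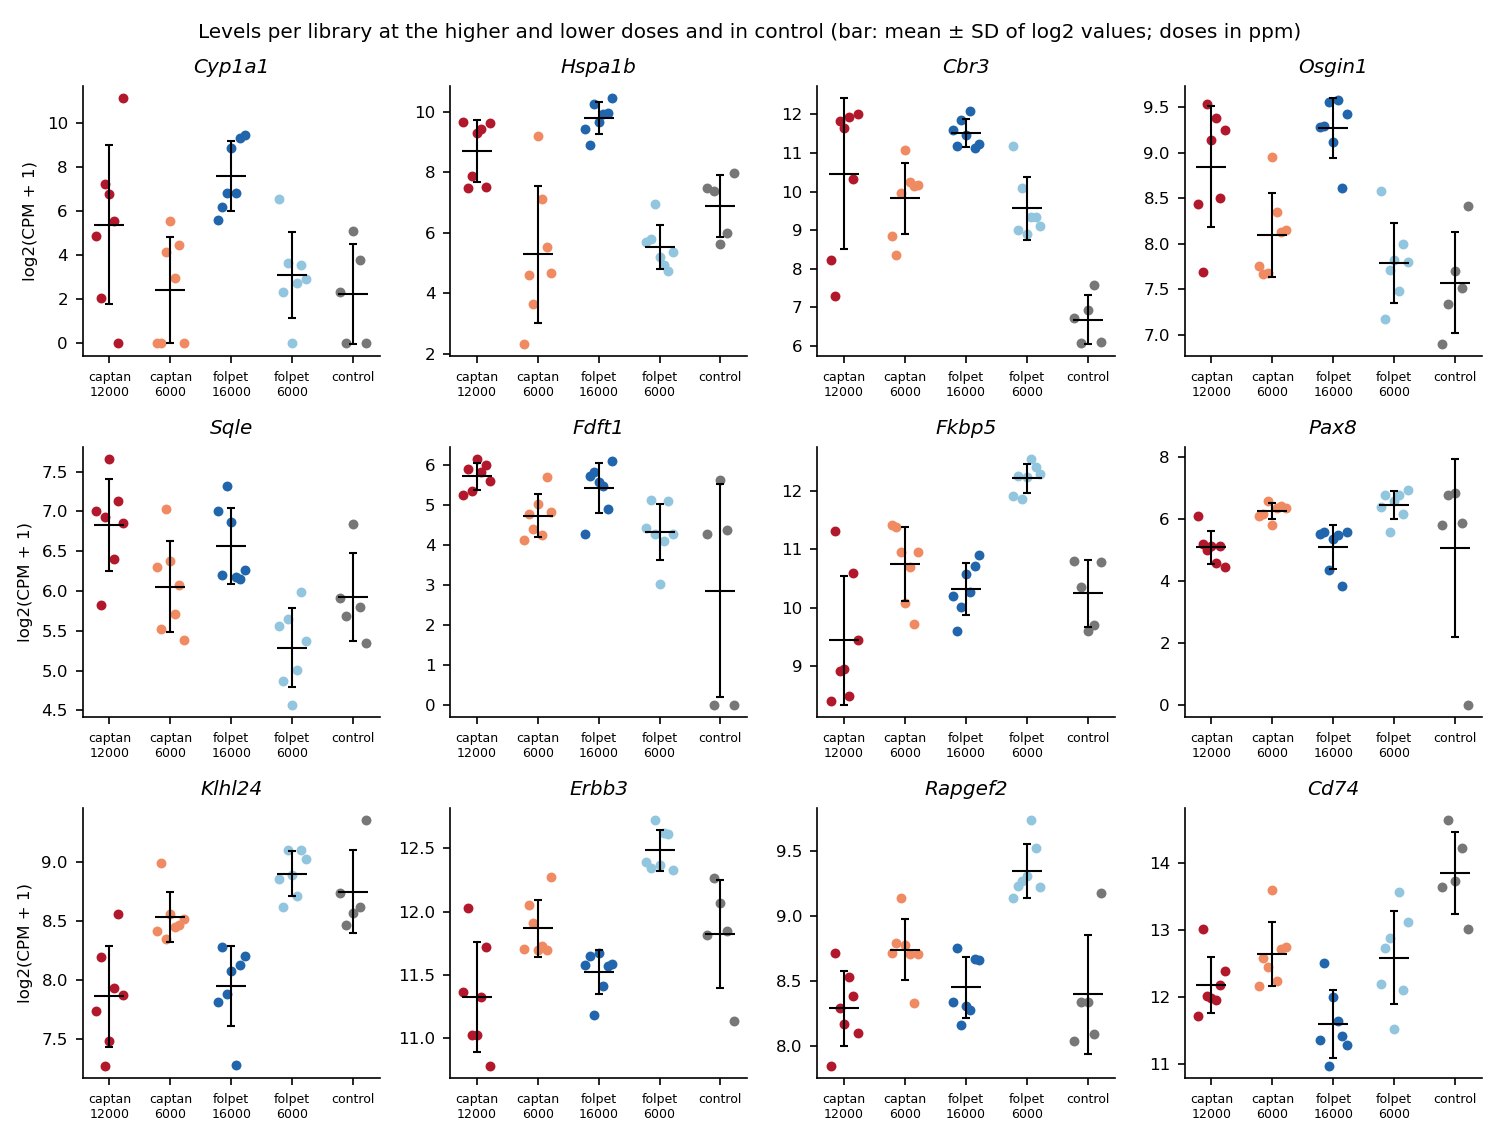
Levels in every library, as log2 of CPM plus 1, for 12 of the called genes in the 4 fungicide groups and control, with bars for mean ± SD of the log2 values (n = 7, control n = 5). In folpet the higher-dose libraries of Hspa1b, Osgin1 and Sqle all lie above those at 6000 ppm and those of Fkbp5, Pax8, Klhl24, Erbb3 and Rapgef2 all below, while in captan the ranges overlap for all 12 genes.

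Among the heat shock and proteasome genes, 3 probes rose and 1 fell of 28 tested, and 24 did not pass. That is 14.3% called, beside 2.66% of all tested probes. The median log2 fold change of the 28 was 0.22, with 21 above 0, beside 1189 of 2406 over all probes. Hspa1b, an HSP70 chaperone that refolds damaged proteins, showed the largest rise of the list. Its level was 177 CPM at the lowest, 631 at the median and 804 at the highest at captan 12000 ppm, against 4.01, 24.3 and 579 CPM at captan 6000 ppm. At folpet 16000 ppm the same 3 values were 472, 977 and 1385 CPM, against 25.8, 40.4 and 122 CPM at folpet 6000 ppm, and control lay between 48.8 and 251 CPM. Both compounds were thus high at the higher dose, with 1 captan 6000 ppm library in the higher-dose range and no overlap in folpet. The pooled log2 fold change of Hspa1b was 3.12 ± 0.60 with adjusted p = 0.00412 in the edgeR test, and each ± beside a log2 fold change is its standard error. Its near-identical copy Hspa1a did not pass, at 2.09 ± 0.74 with adjusted p = 0.15, and reads of the pair may be shared, so the rise is uncertain as that of a single gene.

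Bag3, an HSP70 co-chaperone that directs damaged proteins to autophagy, averaged 91.3 ± 27.0 CPM at the higher doses and 61.1 ± 15.7 CPM at the lower doses (SD, n = 14 each). It rose by 0.59 ± 0.16 log2 with adjusted p = 0.0287, and was lost in 5 of 28 fits that left out 1 library each (adjusted p up to 0.0622, edgeR). Tcp1, a subunit of the chaperonin that folds actin and tubulin, rose by 0.48 ± 0.12 log2 with adjusted p = 0.0181 in the edgeR test. Its step was 0.15 ± 0.15 log2 in captan and 0.80 ± 0.15 in folpet, not shown to differ (edgeR adjusted p = 0.36). The Tcp1 call was lost with library totals alone. The HSP70 co-chaperone Dnajb1, at 0.88 ± 0.30 log2, and both probes of the chaperone Hsp90aa1, at 0.27 ± 0.13 and 0.26 ± 0.30, did not pass. The fall in this list was Fkbp5, a co-chaperone that holds the glucocorticoid receptor in its inactive form and is itself a glucocorticoid-induced gene.

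Fkbp5 showed the largest fall of all called probes. At captan 12000 ppm its lowest, median and highest levels were 335, 491 and 2551 CPM, against 842, 1984 and 2745 CPM at captan 6000 ppm. In folpet they were 776, 1234 and 1904 CPM at 16000 ppm, against 3727, 4894 and 5969 CPM at 6000 ppm. Control held 773, 1311 and 1773 CPM. The folpet 16000 ppm range thus overlapped that of control and reached above it, and the folpet 6000 ppm libraries all lay above the control range. The pooled log2 fold change of Fkbp5 was -1.43 ± 0.28 with adjusted p = 0.0048 (edgeR). Of the 11 tested probes of the circadian and glucocorticoid list, it was the only one called (9.09%, beside 2.66% of all tested probes). Tsc22d3, another glucocorticoid-induced gene, did not pass with either probe (-0.28 ± 0.12 and -0.37 ± 0.20 log2). The list as a whole did not fall: the median log2 fold change of its 11 probes was 0.12, and 6 lay above 0.

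In the list of lipid and sterol synthesis, 6 of 21 tested probes rose, none fell and 15 did not pass. That is 28.6% called, beside 2.66% of all probes, and no test of the list was made. The median log2 fold change was 0.46 (0.37 in the captan step and 0.45 in the folpet step), and 20 of the 21 probes lay above 0. Between 1 and 7 of the probes were called over the 15 other settings, with 2 called by library totals alone and 1 when all 40 libraries entered the fit. The median lay between 0.37 and 0.51 over those settings.

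Sqle, squalene epoxidase, which commits squalene to sterols, had the smallest adjusted p of the list. It lay at 55.8, 121 and 201 CPM at captan 12000 ppm (lowest, median and highest library), against 40.7, 66.4 and 129.9 CPM at captan 6000 ppm. Folpet 16000 ppm gave 70.0, 75.8 and 158 CPM, against 22.7, 40.4 and 62.3 CPM at folpet 6000 ppm, and the control median was 54.9 CPM. The folpet doses did not overlap, and the captan doses did. Sqle rose by 1.03 ± 0.19 log2 with adjusted p = 0.00132 in the edgeR test.

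Fdft1, squalene synthase, the enzyme just before Sqle, lay at 36.7, 55.6 and 69.6 CPM at captan 12000 ppm, against 16.4, 26.5 and 50.8 CPM at captan 6000 ppm. Its folpet levels were 18.5, 46.8 and 68.0 CPM at 16000 ppm, against 7.07, 18.3 and 33.6 CPM at 6000 ppm. The ranges overlapped for both compounds, and 2 control libraries were at 0. Fdft1 rose by 1.02 ± 0.22 log2 with adjusted p = 0.00503 in the edgeR test.

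Hmgcs1, the cytosolic HMG-CoA synthase whose upstream window holds the sterol motif, averaged 83.0 ± 26.5 CPM at the higher doses and 51.6 ± 22.3 CPM at the lower doses (SD, n = 14 each). It rose by 0.72 ± 0.20 log2 with adjusted p = 0.0411 (edgeR). Insig1, which retains the SREBP complex in the endoplasmic reticulum and is itself an SREBP target, rose by 0.46 ± 0.13 log2, and the fatty acid synthase Fasn by 0.63 ± 0.18 log2, both with adjusted p = 0.0422 (edgeR). These 3 genes lay close to the threshold. Leaving out 1 library at a time, the call was lost in 14 of 28 fits for Hmgcs1, 18 for Insig1 and 20 for Fasn, with adjusted p up to 0.109 for Fasn and fold changes that stayed above 0 in each fit.

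Enzymes of the pathway that did not pass included Idi1 at 1.49 ± 0.53, Cyp51 at 0.52 ± 0.22, Nsdhl at 0.35 ± 0.17 and Dhcr7 at 0.30 ± 0.27 log2. Of the list, the one probe below 0 was that of Lpin1, a phosphatidate phosphatase, at -0.60 ± 0.33 log2, which did not pass.

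**Figure D3:**
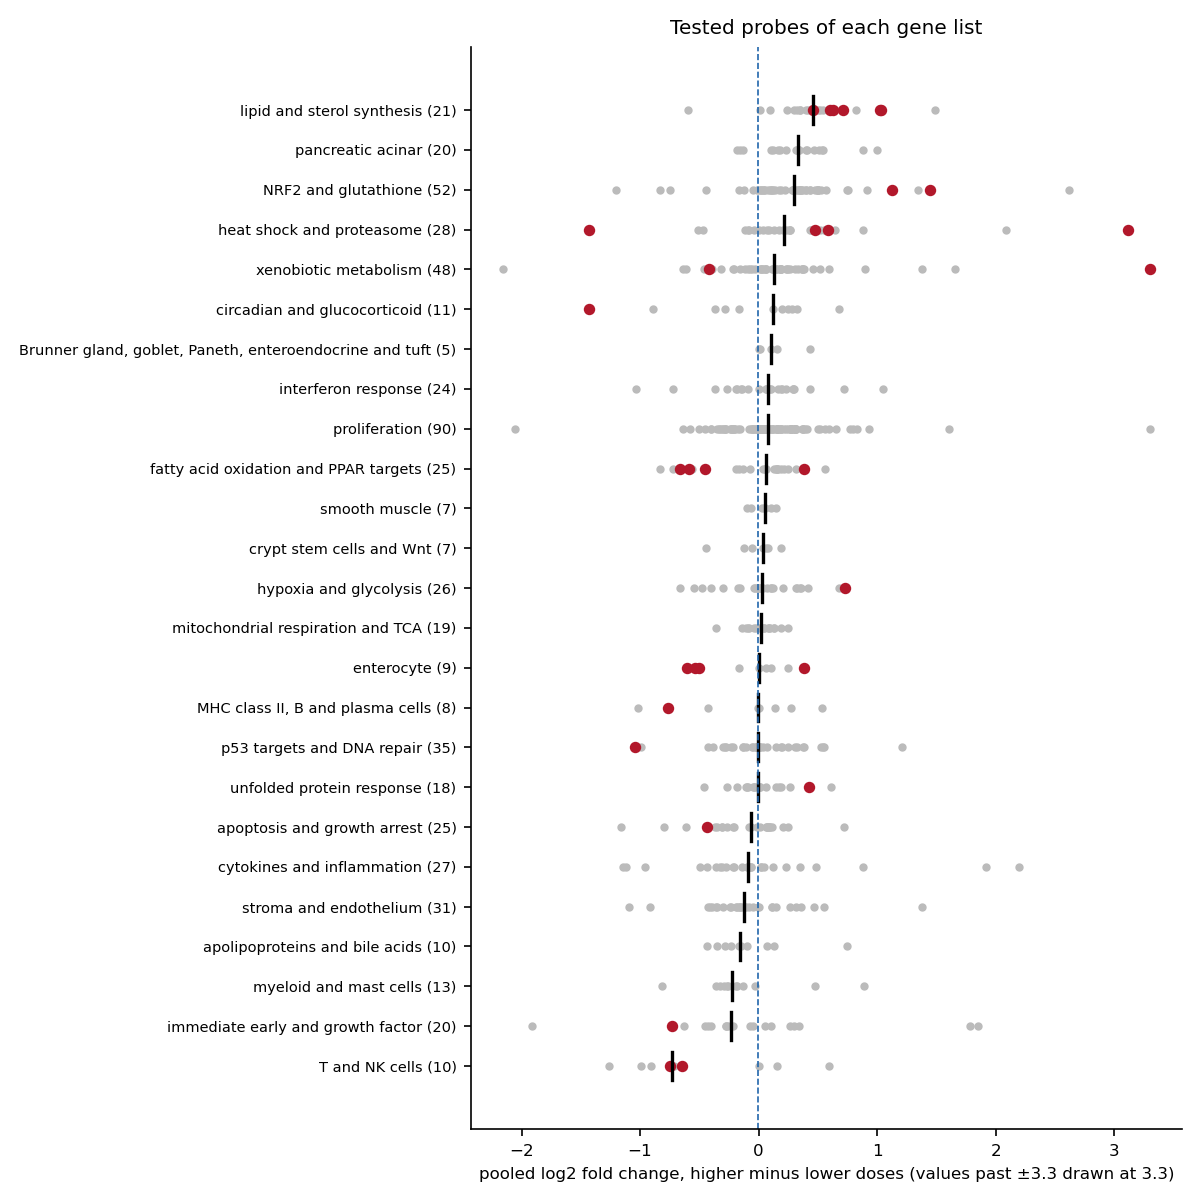
Pooled log2 fold change, higher minus lower doses, of every tested probe in 25 gene lists of at least 5 tested probes (numbers of probes in brackets), with called probes in red, list medians as black bars and the median of all 2406 probes as a dashed line; values past 3.3 are drawn at 3.3. The lipid and sterol list lies furthest to the right by its median of 0.46 and the T and NK cell list furthest to the left at -0.73.

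Of 52 tested probes of the NRF2 and glutathione list, 2 rose, none fell and 50 did not pass. The called share of 3.85% lies near the 2.66% of all tested probes. The median log2 fold change was 0.30, beside -0.0029 over all probes, and 44 of 52 lay above 0, beside 1189 of 2406. An unadjusted p under 0.05 was found for 18 of the 52, beside 292 of 2406, and no test of the list was made. Osgin1, an oxidative stress-induced growth inhibitor, lay at 205, 563 and 740.0 CPM at captan 12000 ppm, against 202, 279.5 and 494 CPM at captan 6000 ppm. It lay at 391, 625 and 762 CPM at folpet 16000 ppm, against 143, 221 and 383 CPM at folpet 6000 ppm, and between 119 and 341 CPM in control. No folpet 16000 ppm library was as low as any at folpet 6000 ppm. Osgin1 rose by 1.12 ± 0.19 log2 with adjusted p = 0.000833 in the edgeR test, and kept its call in all 15 alternative settings and all 28 fits that left out 1 library.

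Cbr3, a carbonyl reductase, had a mean far above that of control at both dose levels. It averaged 2675 ± 1331 CPM at the higher doses, 977 ± 613 CPM at the lower doses (SD, n = 14 each) and 109.9 ± 50.9 CPM in control (n = 5). Captan 12000 ppm libraries were spread from 156 to 4128 CPM, against 329.6 to 2174 CPM at captan 6000 ppm, and folpet 16000 ppm libraries lay between 2228 and 4327 CPM, against 475 to 2309 CPM at folpet 6000 ppm. Cbr3 rose by 1.45 ± 0.39 log2 with adjusted p = 0.0422 (edgeR), and was lost in 21 of 28 fits that left out 1 library, with adjusted p up to 0.0833.

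The other named members of this list did not pass. Nqo1, a quinone reductase often used as an NRF2 marker, averaged 744 ± 315 CPM at the higher doses, 392 ± 191 CPM at the lower doses and 139 ± 57.0 CPM in control, with 0.91 ± 0.29 log2 between the doses and adjusted p = 0.0976 (edgeR). Gclc, the catalytic subunit of glutathione synthesis, was at 0.75 ± 0.32 log2, and the thioredoxin reductase Txnrd1 at 0.34 ± 0.17. The glutathione transferases Gsta1 and Gsta2 were at 0.53 ± 0.23 and 0.48 ± 0.30 log2. Gsta1 averaged 30346 ± 11296 CPM at the higher doses, 20717 ± 6273 CPM at the lower doses and 4093 ± 2385 CPM in control, so the distance from control was larger than that between the doses. The haem oxygenase Hmox1 had at most 38.0 CPM in any fungicide library and did not pass. Without the 6 libraries of fewest acinar counts, 8 probes of the list were called higher, and by library totals alone 1 was.

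In the xenobiotic metabolism list, 1 of 48 tested probes rose and 1 fell, with a median log2 fold change of 0.13. The called share of 4.17% lies near the 2.66% of all tested probes. Cyp1a1 showed the largest rise of all called probes, and its libraries varied widely. At captan 12000 ppm it was at 0 in 1 library, at 46.8 CPM in the median library and at 2260.3 CPM in the highest, against 0, 6.83 and 45.9 CPM at captan 6000 ppm, where 3 libraries were at 0. At folpet 16000 ppm the lowest, median and highest values were 47.8, 115 and 705 CPM, against 0, 6.55 and 94.5 CPM at folpet 6000 ppm, and control reached 33.3 CPM. The doses overlapped for both compounds. The highest captan library was replicate 7, which also held the largest acinar share. Cyp1a1 rose by 4.39 ± 1.02 log2 with adjusted p = 0.0166 in the edgeR test, and was at 3.11 with adjusted p = 0.0789 without that library. The call was also lost with limma-voom, with library totals alone and with the acinar share as a covariate.

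Nr1i2, the pregnane X receptor, fell by 0.42 on the log2 scale (standard error 0.11, edgeR adjusted p = 0.0361), and was lost in 15 of 28 fits that left out 1 library. The constitutive androstane receptor Nr1i3 and its targets Cyp2c29 and Ces1g did not pass, at 0.19 ± 0.08, 0.90 ± 0.49 and 0.46 ± 0.35 log2. Cyp2c29 averaged 1242 ± 1162 CPM at captan 12000 ppm against 408 ± 204 CPM at captan 6000 ppm, and 104 ± 47.2 CPM at folpet 16000 ppm against 91.4 ± 62.6 CPM at folpet 6000 ppm (SD, n = 7 each). The steps of captan and folpet in Cyp2c29 were not shown to differ (adjusted p = 0.826, edgeR).

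Among the falls, Klhl24, Erbb3 and Rapgef2 shared the smallest adjusted p, 4.8e-05 in the edgeR test, and kept their calls in all 15 alternative settings and all 28 fits that left out 1 library. Klhl24, an adaptor of a cullin ubiquitin ligase, lay at 153, 233 and 375 CPM at captan 12000 ppm, against 325, 352 and 507 CPM at captan 6000 ppm. In folpet it lay at 154, 268 and 309 CPM at 16000 ppm, against 391, 473 and 549 CPM at 6000 ppm, and the control median was 392 CPM. Its folpet doses did not overlap, and its pooled log2 fold change was -0.78 ± 0.11.

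Erbb3, the neuregulin receptor that signals with Erbb2, lay at 1760.2, 2574 and 4169 CPM at captan 12000 ppm, against 3319, 3397 and 4959 CPM at captan 6000 ppm. In folpet it lay at 2321, 3052 and 3261 CPM at 16000 ppm, against 5144, 5356 and 6745 CPM at 6000 ppm, again without overlap. Control lay between 2246 and 4913 CPM, below every folpet 6000 ppm library. The pooled log2 fold change of Erbb3 was -0.73 ± 0.11. Rapgef2, an exchange factor that activates the small GTPase Rap1, averaged 335 ± 61.3 CPM at the higher doses, 544 ± 144 CPM at the lower doses and 352 ± 130.1 CPM in control, with -0.67 ± 0.10 log2 between the doses. Erbb3 was the only called probe among 20 of the immediate early and growth factor list, whose median was -0.24. That is 5% called, beside 2.66% of all tested probes.

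Pax8, a paired-box transcription factor, fell by 1.22 on the log2 scale (standard error 0.19, edgeR adjusted p = 7.28e-05). It averaged 35.9 ± 14.3 CPM at the higher doses and 83.8 ± 20.8 CPM at the lower doses (SD, n = 14 each), with 20.9 to 68.2 CPM at captan 12000 ppm against 55.4 to 95.9 CPM at captan 6000 ppm, and 13.3 to 47.3 CPM at folpet 16000 ppm against 47.4 to 121 CPM at folpet 6000 ppm. Bbc3, also named PUMA, a p53 target that promotes apoptosis, fell by 1.05 on the log2 scale with adjusted p = 0.018 (edgeR). It was the only called probe of 35 in the p53 and DNA repair list, whose median was -0.0058. The called share of 2.86% lies near the 2.66% of all tested probes. Cdkn1a, the cell cycle inhibitor p21 that p53 turns on, was at -0.11 ± 0.11 log2 and did not pass. Both probes of Igfbp3, a binding protein of insulin-like growth factors, fell, by 0.85 and 0.68 on the log2 scale (edgeR adjusted p = 0.00503 and 0.0395), and the second was lost in 19 of 28 fits that left out 1 library. Cdkn1b, the cell cycle inhibitor p27, fell by 0.44 on the log2 scale with adjusted p = 0.00503 (edgeR).

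In the proliferation list, edgeR called 0 of 90 tested probes, beside 2.66% of all tested probes. The median log2 fold change was 0.08. An unadjusted edgeR p under 0.05 was found for 6 of the 90, beside 292 of 2406. The proliferation marker Mki67 was at 0.03 ± 0.26 log2, and averaged 25.8 ± 13.3 CPM at the higher doses, 25.1 ± 9.34 CPM at the lower doses (SD, n = 14 each) and 32.1 ± 23.2 CPM in control (n = 5). The lowest p of the list belonged to the tubulin Tuba1b, at 0.31 ± 0.10 log2 with adjusted p = 0.0749 (edgeR), which did not pass.

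Of 25 tested probes of the fatty acid oxidation and PPAR list, 1 rose and 3 fell, and the median was 0.06. That is 16% called, beside 2.66% of all tested probes, and 15 of the 25 lay above 0. Slc27a2, a very long-chain acyl-CoA synthetase that also transports fatty acids, lay at 616, 735 and 1013 CPM at captan 12000 ppm, against 746, 1037 and 1328 CPM at captan 6000 ppm. It lay at 482, 656 and 791 CPM at folpet 16000 ppm, against 939.8, 1096 and 1268 CPM at folpet 6000 ppm, with no overlap in folpet. Slc27a2 fell by 0.59 on the log2 scale (standard error 0.09, edgeR adjusted p = 8.54e-05), and kept its call in all 15 alternative settings.

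The nuclear receptor Ppara, which turns on fatty acid oxidation, fell by 0.45 on the log2 scale (edgeR adjusted p = 0.0233), and its coactivator Ppargc1a by 0.66 (edgeR adjusted p = 0.0087). Fabp1, a fatty acid-binding protein abundant in enterocytes, rose by 0.38 ± 0.10 log2 with adjusted p = 0.0183 (edgeR), at 16470.0 ± 2279.5 CPM at the higher doses against 12636 ± 2538 CPM at the lower doses (SD, n = 14 each). Over the 15 alternative settings, the call was lost in 3 for Ppara, 2 for Ppargc1a and 3 for Fabp1. The transcription factor Creb3l3 did not pass, at -0.19 ± 0.09 log2. The median of this list lay between -0.03 and 0.14 over the settings tried, so it has no set direction.

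Fabp1 was also the 1 rise among 9 tested enterocyte probes, of which 3 fell and 5 did not pass. That is 44.4% called, beside 2.66% of all tested probes. Both probes of Ace, a peptidase of the brush border, fell, by 0.50 and 0.54 on the log2 scale (edgeR adjusted p = 0.00132 and 0.00198). The more abundant Ace probe averaged 1936 ± 384 CPM at the higher doses and 2809.5 ± 532 CPM at the lower doses. The glucose transporter Slc2a2 averaged 59.2 ± 19.2 CPM at the higher doses and 90.4 ± 19.9 CPM at the lower doses, and fell by 0.60 on the log2 scale (edgeR adjusted p = 0.034), with the call lost in 11 of 28 fits that left out 1 library. Hnf4a, Apoa1 and Klf4 did not pass, at 0.00, -0.17 and 0.11 log2.

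In the T and NK cell list, 2 of 10 tested probes fell and none rose. That is 20% called, beside 2.66% of all tested probes. The median of -0.73 was the lowest of all lists. It was -0.13 in the captan step and -0.88 in the folpet step. Both called probes belong to Itgae, the integrin chain CD103 that holds intraepithelial lymphocytes to the epithelium. The more abundant probe averaged 124 ± 28.8 CPM at the higher doses, 191 ± 57.8 CPM at the lower doses (SD, n = 14 each) and 251 ± 127 CPM in control (n = 5). The Itgae probes fell by 0.64 and 0.75 on the log2 scale (edgeR adjusted p = 0.00536 and 0.0117). The granzymes Gzma and Gzmb, proteases of cytotoxic lymphocytes, did not pass, at -0.90 ± 0.37 and -0.72 ± 0.39 log2. The remaining 6 probes had standard errors from 0.64 (Fasl) to 1.24 (Cd5), and no difference in them was detectable at this depth. The 4 measured markers of T and NK cells summed to 28.8 to 601 CPM at the higher doses (median 91.4), 63.6 to 369 CPM at the lower doses (median 218) and 116 to 506 CPM in control (median 149), and their part in the Itgae result was not tested.

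Cd74, the invariant chain that loads MHC class II, averaged 4038 ± 1622 CPM at the higher doses, 6724 ± 2759 CPM at the lower doses (SD, n = 14 each) and 15795 ± 6595 CPM in control (n = 5). It fell by 0.76 on the log2 scale (standard error 0.21, edgeR adjusted p = 0.0422), and the call was lost in 19 of 28 fits that left out 1 library, with adjusted p up to 0.081. The MHC class II chain H2-Aa did not pass, at -1.01 ± 0.30 log2. Cd74 was the 1 called probe of 8 in the list of MHC class II, B and plasma cells. That is 12.5% called, beside 2.66% of all tested probes. The median log2 fold change of the 8 was -0.00088, and 4 of them lay above 0, so the list as a whole had no set direction. The 6 measured markers of myeloid cells summed to 338 to 1135 CPM at the higher doses and 667 to 1226 CPM at the lower doses. Of 13 tested probes of the myeloid list none was called, beside 2.66% of all tested probes.

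Single calls came from further lists, and a few from none. Pfkl, the liver-type phosphofructokinase of glycolysis, rose by 0.73 ± 0.18 log2 with adjusted p = 0.019 (edgeR), as the 1 called probe of 26 in the hypoxia and glycolysis list. Atf4, the transcription factor of the integrated stress response, rose by 0.43 ± 0.10 log2 with adjusted p = 0.0166 (edgeR). It was the 1 called probe of 18 in the unfolded protein response list. The called shares of the hypoxia and unfolded protein lists were 3.85% and 5.56%, beside 2.66% of all tested probes. In 12 of 26 lists no probe was called, among them those of smooth muscle, stroma, interferon response, cytokines, mitochondrial respiration and pancreatic acinar cells. Outside the lists, the protease Prss8 of epithelial sodium channel processing rose by 0.70 ± 0.17 log2 and the pseudogene Ces2d-ps by 1.03 ± 0.28, while LOC665506 fell by 1.08 and 4833414E09Rik by 0.98 on the log2 scale (edgeR adjusted p from 0.00198 to 0.0326). Mthfd1l, an enzyme of mitochondrial folate metabolism, rose by 0.58 ± 0.15 log2 and the sialyltransferase St6galnac2 fell by 0.45 on the log2 scale (edgeR adjusted p = 0.0233 and 0.0416). Calls of Ces2d-ps and 4833414E09Rik were lost in 8 and 12 of 28 fits that left out 1 library. Those of Pfkl, Atf4, Prss8 and Ces2d-ps were lost with library totals alone and also with all 40 libraries in the fit. The 4833414E09Rik call was also lost with library totals alone.

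The naming rule covers 40 of the 64 called probes, and 24 fall outside it. The 9 that rose lay between 0.32 and 0.59 log2 and the 15 that fell between -0.64 and -0.26. Chosen after their values were seen, these include Ptger4, a receptor of prostaglandin E2, at 0.52 ± 0.10 log2, Mat2a, which makes S-adenosylmethionine, at 0.49 ± 0.12, and Grb7, an adaptor of ERBB receptors, at -0.61 ± 0.11. Both probes of the nucleoside diphosphate kinase Nme1 rose, by 0.46 and 0.38 log2 (edgeR adjusted p = 0.0233 and 0.0287). Of 8 called genes with a second tested probe, Ace, Igfbp3, Itgae and Nme1 were called with both, and Dnajb2, H2afv, Mthfd1l and Prkcd with 1.

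**Figure D4:**
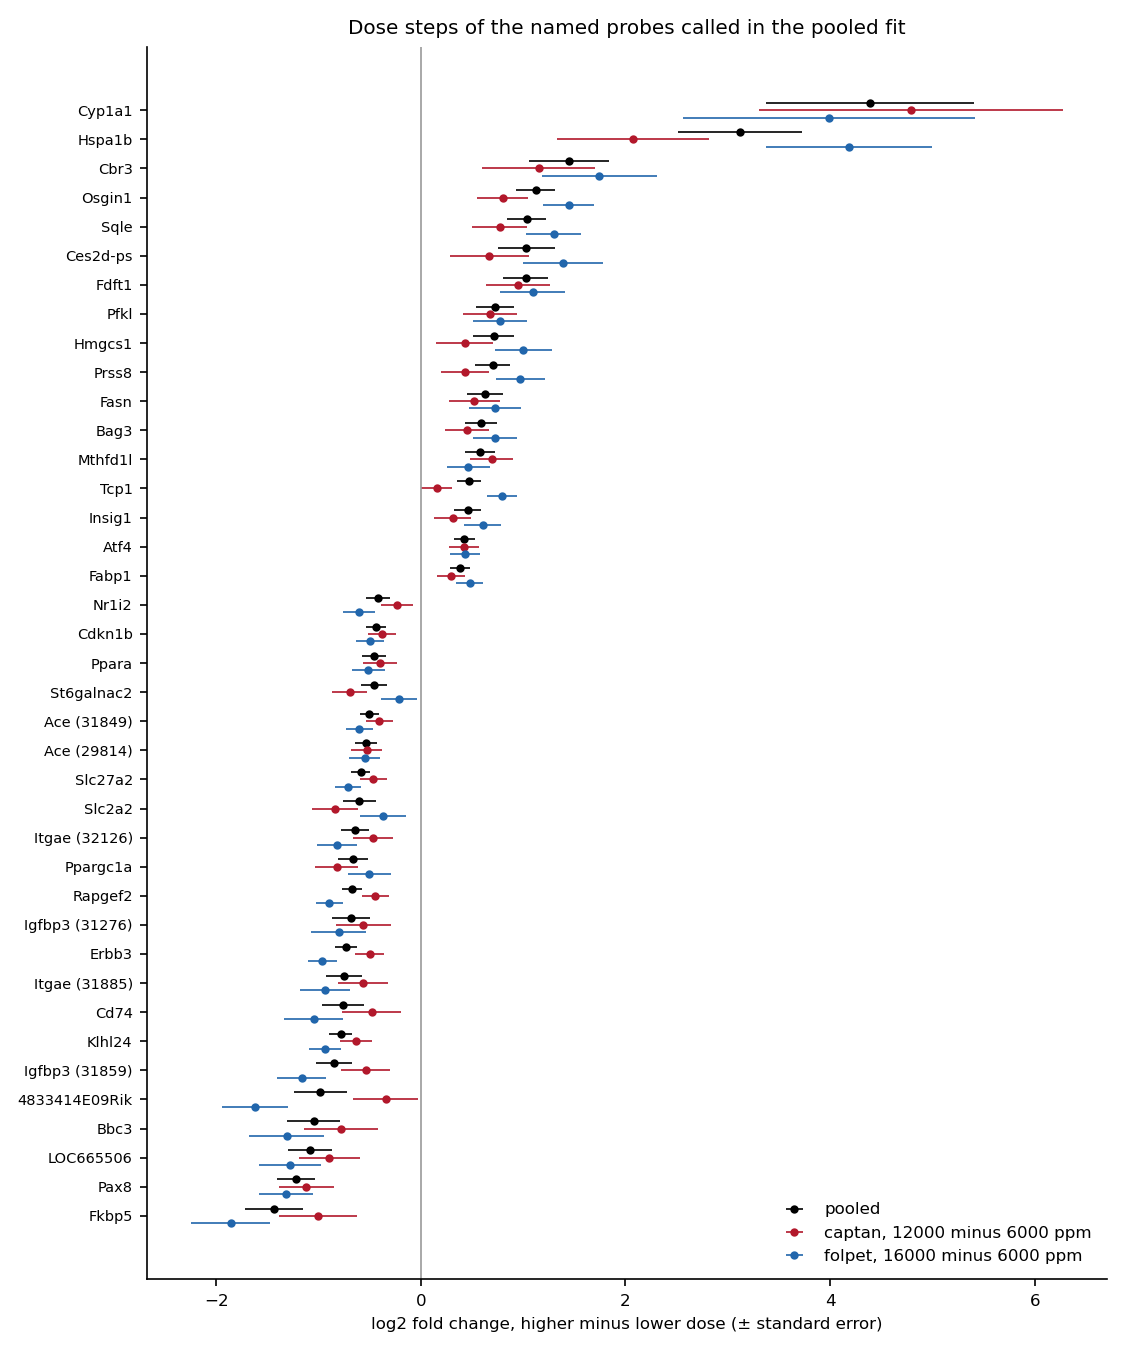
Log2 fold change ± standard error of 39 called probes named by the rule, in the pooled fit and in the separate captan and folpet steps. Each probe has the same sign in both steps, and for most of them the folpet value lies further from 0 than the captan value.

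The steps of the compounds were then estimated apart, in a model with a mean for each of the 4 groups. For captan, 12000 against 6000 ppm, edgeR called 0 of 2406 probes, with 167 at an unadjusted p under 0.05 and a smallest adjusted p of 0.161, while DESeq2 called 3 and limma-voom 0. For folpet, 16000 against 6000 ppm, edgeR called 81 probes, which is 3.37%, with 29 higher (1.21%) and 52 lower (2.16%). With library totals alone 2 were higher and 47 lower, and the median of all probes was then at -0.31, against -0.04 with TMM. The folpet count was 49 without folpet 16000 ppm replicate 5. The groups of 7 did not overlap in folpet for 16 probes on the higher side (0.665%) and 26 on the lower side (1.08%), and in captan for 0 and 1 probes.

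This difference in counts does not show that the compounds differ. The test of the difference between the steps called 0 of 2406 probes, with 196 at an unadjusted p under 0.05 and a smallest adjusted p of 0.0773 in edgeR, while DESeq2 called 2 and limma-voom 1. The folpet step also covers a larger dose range than the captan step. All 64 probes called in the pooled fit had the same sign in both steps, 54 were larger in folpet and 45 were also called in folpet alone; the pooled fit draws on both steps, so the shared sign partly follows from the choice of probes.

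The 81 folpet calls were made without the difference between the captan doses. Of these, 73 (90.1%) had the same sign in captan, beside 55.1% of all tested probes. Their median size was 0.74 log2 in folpet and 0.23 in captan. Over all 2406 probes the steps were barely related (Pearson r = 0.053, Spearman rho = 0.097, across probes of shared libraries and given as a description).

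**Figure D5:**
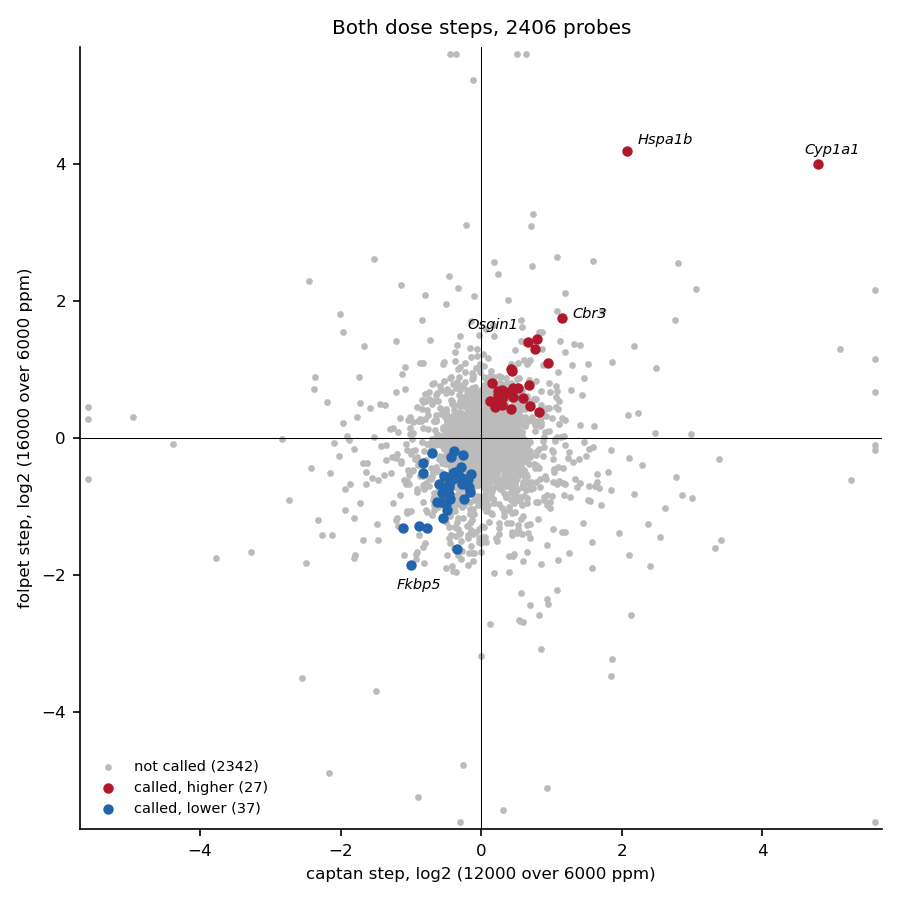
Captan step against folpet step, both in log2 fold change, for 2406 probes, with called probes of the pooled fit in red (higher, 27) and blue (lower, 37); 14 probes past 5.6 are drawn at the edge. The called probes lie to the upper right and the lower left, while the 2342 others spread around 0 in every direction.

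Several genes stood out in 1 step. Ceacam1, an adhesion receptor of epithelial cells, lay at 149, 231 and 276 CPM at folpet 16000 ppm, against 449, 552 and 669 CPM at folpet 6000 ppm, but at 229, 359 and 822 CPM at captan 12000 ppm, against 296, 425 and 602 CPM at captan 6000 ppm. It fell in the folpet step, by 1.33 on the log2 scale (edgeR adjusted p = 0.000256), and was at -0.03 ± 0.20 log2 in the captan step. The difference between the steps, -1.30 ± 0.29, did not pass (edgeR adjusted p = 0.095). Aldoa, a glycolytic aldolase, rose in the folpet step by 0.75 ± 0.16 log2 (edgeR adjusted p = 0.0044) and was at 0.09 ± 0.16 in the captan step. Its steps were not shown to differ (0.66 ± 0.22 log2, edgeR adjusted p = 0.361).

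Further named genes called in the folpet step and not in the pooled fit lay on both sides. Spcs2, a subunit of the signal peptidase, rose by 1.09 ± 0.26 log2 and the epithelial keratin Krt19 by 0.39 ± 0.11 (edgeR adjusted p = 0.0104 and 0.0398). The collagen gene Col4a2 of basement membranes fell by 0.67, the MHC class I gene H2-K1 by 0.69 and the apolipoprotein Apoe by 0.51 on the log2 scale (edgeR adjusted p = 0.00598, 0.0098 and 0.0421). C1qb, a complement chain made by macrophages, averaged 130.3 ± 27.4 CPM at folpet 16000 ppm against 219 ± 50.7 CPM at folpet 6000 ppm, and 193 ± 22.8 CPM at captan 12000 ppm against 173 ± 30.1 CPM at captan 6000 ppm (SD, n = 7 each). C1qb fell by 0.75 on the log2 scale in the folpet step (edgeR adjusted p = 0.0044), and its steps were not shown to differ (edgeR adjusted p = 0.167). In the captan step these 6 genes lay between -0.22 and 0.16 log2 and did not pass. The difference between the steps did not pass for any of them.

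In the captan step the smallest p-values were those of Klhl24, St6galnac2, Pax8 and Fen1, and none passed. Fen1, a nuclease of DNA replication, averaged 44.6 ± 8.85 CPM at captan 12000 ppm against 19.5 ± 7.26 CPM at captan 6000 ppm, and 29.5 ± 8.35 CPM at folpet 16000 ppm against 31.6 ± 10.3 CPM at folpet 6000 ppm (SD, n = 7 each). Its captan step was 1.20 ± 0.28 log2 (edgeR adjusted p = 0.161). The smallest p of the difference between the steps belonged to Cenpi, a centromere protein, which was at 0 in all 7 libraries at folpet 16000 ppm and all 7 at captan 6000 ppm and had at most 7.51 CPM in the other fungicide libraries, so no fold is given.

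Control levels placed the dose step in relation to no exposure, without a test. Of the 27 probes that rose, the control mean lay below both dose levels for 14, between them for 12 and above both for 1, Fasn. Of the 37 that fell, the control mean lay above both dose levels for 14, between them for 15 and below both for 8. Cbr3, Itgae and Cd74 were thus further from control at the higher doses, as were the Igfbp3 probes. For Erbb3, Rapgef2 and Fkbp5 the lower-dose mean of both compounds together was above control and the higher-dose mean was below it. By compound this did not always hold. At folpet 16000 ppm the mean was not below control for Rapgef2 (353 against 352 CPM) or Fkbp5 (1329 against 1290 CPM). At captan 6000 ppm Erbb3 lay near control (3778 against 3748 CPM). The acinar share, 50.1% in control, also differed between control and the fungicide groups, and its part in these positions was not tested.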

How the data were processed

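TempO-Seq libraries of FFPE mouse duodenum were analysed from the deposited table of counts per probe, which the authors made and which were not normalized. Per the submitters' processing notes, Bowtie, bcl2fastq (version 2.17.1.14) and the mouse build mm9 were used, with no role stated. Probe positions were not used here. The table holds 3045 probes for 2756 gene symbols, 289 of them with 2 probes, and 28.5% of its values are 0. Values of 1 to 5 make up 1.01% of those above 0 and values of 21 to 25 make up 2.93%.

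Counts were fitted with edgeR 4.0.16 in R 4.3.3 by the robust quasi-likelihood test, with TMM factors from all 40 libraries. filterByExpr (minimum count 10, minimum total 15) left 2406 probes. The pooled step used compound as a block (25 residual degrees of freedom), and each compound's step and their difference came from 4 group means (24 residual degrees of freedom). P-values were adjusted by Benjamini-Hochberg over all tested probes, with a threshold of 0.05. Standard errors are the log2 fold change divided by the root of F, and CPM uses TMM-scaled totals. Alternatives used limma 3.58.1 and DESeq2 1.42.0. On simulated data for the pooled step (2406 probes, 200 changed, 5 simulations), 60.6% of 2-fold and 76.6% of 4-fold changes were called, and 4.97% of calls were false. The simulated probes varied independently and changed equally in both compounds. Variation shared between probes, such as the acinar share, was not simulated, so these rates may not hold for the real libraries. No pair of libraries held identical values.

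Groups came from the labels, which give no replicate numbers, so numbers follow the listed order and pair nothing. Genes were named by a rule: the largest called rises and falls, called members of the gene lists, the leading genes of each step and a few fixed markers. Some members of the lists are counted but not reported here by name. The members and lists were chosen with earlier results of these data known. Upstream windows came from RefSeq on GRCm38.p6.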

Additional observations from a re-analysis of the deposited data

Results flagged for a closer look

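In 130 sets of values (named probes, acinar share and totals in each group), 9 had 1 library far from the others, and chance gives about 1 in 20 groups. Control replicate 5, which held 79.3% acinar counts, had 4 of these: its log2 CPM was 9.179 for Rapgef2, above the other controls, and -1.263, the value of 0 counts, for Pax8, Hmgcs1 and the second Igfbp3 probe. Captan 12000 ppm replicate 7 had an acinar share of 55.42% and 6109418 total counts, both above the other libraries at that dose. Captan 12000 ppm replicate 6 was high in the second Igfbp3 probe, at 8.144 log2 CPM. Captan 6000 ppm replicate 2 was high in Klhl24, at 8.988 log2 CPM, and captan 6000 ppm replicate 4 in Cd74, at 13.59 log2 CPM.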

How the results depend on the processing

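No paired analysis was possible because the labels give no replicate numbers. The pooled count of 64 was 16 with library totals alone, 102 with DESeq2, 35 with all 40 libraries, 41 without the library over 50% acinar, and 41 to 111 when each library was left out in turn. It lay between 53 and 73 under the other settings. Without the 6 libraries of fewest acinar counts, a setting chosen after seeing the data, it was 53, with 40 of the 64 among them. The captan count of 0 was 3 with DESeq2 and 0 to 4 in leave-one-out fits, with 4 without captan 12000 ppm replicate 6. The folpet count of 81 was 49 with library totals alone, 44 with all 40 libraries and 49 to 92 in leave-one-out fits. The count of 0 for the difference between steps was 2 with DESeq2, 1 with limma-voom, 1 without robust estimation, 2 without the 6 libraries and 0 to 2 in leave-one-out fits, with 2 without captan 12000 ppm replicate 5. The cause of these shifts was not tested. The difference in acinar share was -0.03686 on the log10 scale, and -2.706 to 1.735 percentage points in leave-one-out values. Of genes that did not pass, Sycn was at -0.3617 log2 without the library over 50% acinar (leave-one-out -0.3617 to 1.021), Flna at -0.1198 without the 6 libraries (leave-one-out -0.05353 to 0.1535) and Mki67 at -0.01493 with library totals alone (leave-one-out -0.09637 to 0.09451). No called gene that the rule names changed sign under these settings, and 11 of 38 kept their call under all 15. Low counts limit the precision of rare transcripts such as those of Cenpi and Hmox1.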
